A study of Arabidopsis thaliana with 24 samples.

Results

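Sucrose and light act on shoot transcripts in opposite directions for a group of 88 genes, which are described here in *sdg8-5* and WT shoots of *Arabidopsis thaliana*. A gene belongs to the group when its probe set has a mean intensity of at least 100 over the 24 arrays, a log2 sucrose effect of -0.4 or below and a log2 light effect of 0.4 or above. Each effect is a difference of mean log2 intensity, over 12 arrays with sucrose minus 12 without and over 12 light minus 12 dark arrays. Of 12432 named genes that were kept, 7846 reached the mean intensity and 94 of these met both effects. Glycosyltransferase (UGT) and serine carboxypeptidase-like (scpl) genes and 6 further named genes were left out by rule, which took away UGT88A1, UGT74D1, UGT85A5, PRK, LYC and AT3G49160.

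The *sdg8-5* plants carry a deletion of SDG8, a methyltransferase for lysine 36 of histone H3, which also takes in part of the neighbouring gene AT1G77310. They come from 1 mutant isolated in a line with a transgene driven by the ASN1 promoter (pASN1-HPT2), and the WT plants are the unmutagenized form of that line, so both genotypes carry the transgene. Shoots came from plants of 3 weeks, grown in liquid medium with 1% sucrose and 2 mM KNO3 under light of 50 µE, then kept for 24 h in darkness without sucrose. Plants of both genotypes were then given 2 h of 1% sucrose in light of 70 µE, light without sucrose, sucrose in darkness, or neither (starved dark). Each of the 8 conditions has 3 ATH1 arrays from 3 biological replicates, and deposited values are MAS5 intensities, scaled to a trimmed mean of 500 on every array.

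Sugars repress many genes of photosynthesis in plants, a feedback that lowers their transcripts when carbohydrate is plentiful, while light raises such genes through photoreceptors and signals from the chloroplast. Histone H3 methylated at lysine 36 lies over the bodies of transcribed genes. A plant moved into light without sugar therefore receives signals that act the same way on such genes, and a plant given sugar in darkness receives the opposite pair.

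The median array intensity lay between 180.5 and 223.3, and log2 values of arrays of a condition correlated at 0.92 to 0.95. No probe set is listed with SDG8 in the annotation used here, in which 8794 probe sets have no gene, so its transcript was not checked here. Of the shoot markers 4 were measured, with a summed intensity of 9969 to 32140 in *sdg8-5* and 11960 to 40970 in WT. The root markers PYK10 and EXPA7 summed to 3443 to 8518 in *sdg8-5* and 4154 to 8683 in WT, while the only measured flower marker, AMS, lay at or below 33.9 in *sdg8-5* and 60.0 in WT. The summed root signal, nearly all of it from PYK10, is above background in these shoot samples. In a bulk sample, fewer cells of a type and less RNA per cell cannot be told apart. Within each treatment the *sdg8-5* arrays had a higher 25S rRNA control signal than the WT arrays, and the bioC hybridization control divides the arrays into a lower group of 4 *sdg8-5* and 8 WT arrays and a higher group of 8 *sdg8-5* and 4 WT arrays.

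The values that chose the genes are given without a test. The sucrose effect ran between -1.77 and -0.40 on the log2 scale, with a median of -0.58, a 1.49-fold fall, and the light effect between 0.41 and 3.32, with a median of 0.92, a 1.89-fold rise. The light effect was the larger of the pair in 69 genes and the sucrose effect in 19. Mean intensity ranged from 109.1 to 4736, with a median of 473.1. Only 8 of the genes have a symbol in the annotation used here, and the other 80 are known by locus alone, so that no role is given for them unless the study annotates one.

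**Figure D1:**
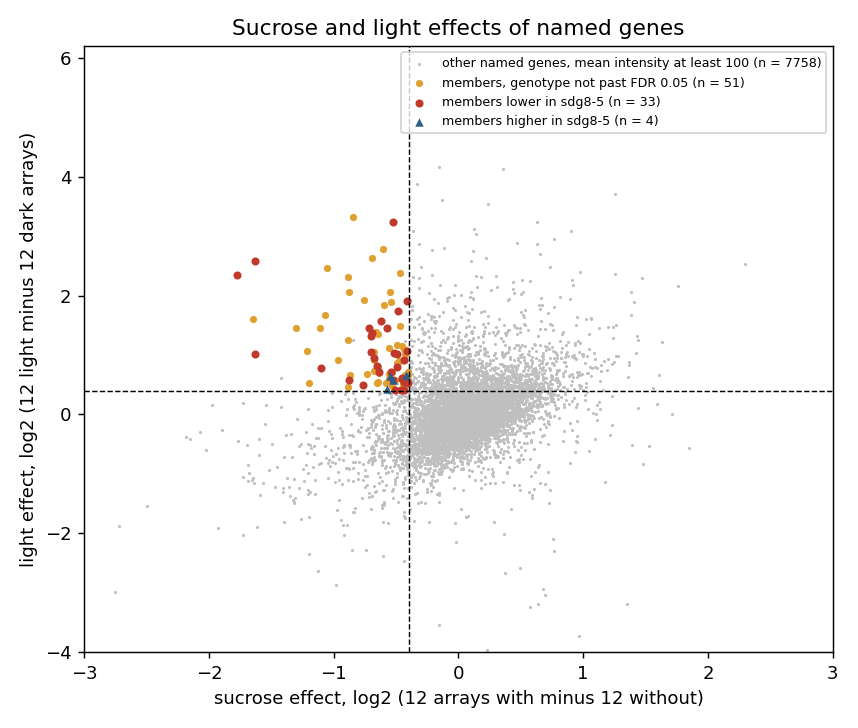
Sucrose effect (x axis, log2, 12 arrays with minus 12 without sucrose) against light effect (y axis, log2, 12 light minus 12 dark arrays) for named genes of mean intensity of at least 100, with dashed lines at the limits of -0.4 and 0.4. Coloured points are the 88 genes, of which 33 were lower and 4 higher in *sdg8-5* over the 4 treatments, and 9 other genes lie outside the axes.

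The best known role belongs to HPR, hydroxypyruvate reductase of the peroxisomes, which returns carbon from photorespiration and was the brightest of the 88 genes. Its intensity in *sdg8-5* was 5078, 5299 and 5433 in sucrose and light, 6641, 7611 and 6746 in light without sucrose, 2078, 1603 and 2169 in sucrose and darkness, and 5254, 3941 and 2772 in the starved dark. In WT it was 4818, 5887 and 8381 in sucrose and light, 8307, 7541 and 9193 in light without sucrose, 1502, 1955 and 1911 in sucrose and darkness, and 4202, 2555 and 2786 in the starved dark. In both genotypes all 3 arrays in sucrose and darkness lay below every other array, and *sdg8-5* and WT overlapped in all 4 treatments. HPR had a log2 sucrose effect of -0.66 (standard error 0.12) and a log2 light effect of 1.38 (standard error 0.12), a 1.58-fold fall and a 2.61-fold rise. It did not pass the genotype test (log2 difference -0.01, limma FDR = 0.957).

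Both genes of chloroplast function with a symbol had smaller light effects than HPR. NdhS, a subunit of the chloroplast NADH dehydrogenase-like complex that carries cyclic electron flow, had 534.9, 1483 and 2466 (lowest, median and highest of 12 arrays) with sucrose and 1437, 2343 and 2999 without it. TRXF2, a chloroplast thioredoxin that activates enzymes of carbon fixation in the light, had 352.5, 539.3 and 933.5 in light and 263.5, 346.3 and 721.9 in darkness. The sets of 12 arrays overlap for both genes. In TRXF2 the *sdg8-5* arrays in sucrose and light (419.2, 484.0 and 541.5) lay above the WT arrays (352.5, 383.8 and 388.7), although its genotype difference over the 4 treatments did not pass (log2 0.28, limma FDR = 0.133). The log2 light effects were 0.75 for NdhS and 0.54 for TRXF2, and the log2 sucrose effects -0.65 for each.

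Among the other named enzymes, GME is the GDP-mannose epimerase that feeds ascorbate and cell wall synthesis. Its 12 arrays had 1101, 3009 and 4956 (lowest, median and highest) with sucrose and 2688, 3767 and 5537 without it. In light they had 3544, 4548 and 5537, against 1101, 2550 and 3960 in darkness. Its lowest arrays were those under sucrose in darkness, with 1814, 1101 and 1827 in *sdg8-5* and 2412, 2001 and 1700 in WT, while every array of the other 3 treatments had 2688 or more. The other genes with a symbol are EXLA1, an expansin-like protein of the cell wall, CSLA03, a cellulose synthase-like glycosyltransferase, CYP71B36, a cytochrome P450, and ZW9. EXLA1 had the smallest light effect of these 4 (log2 0.49, sucrose effect -0.77).

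The genes with the largest opposite effects are known by locus. AT1G76110 had a log2 sucrose effect of -1.77 (standard error 0.23) and a light effect of 2.34, and AT2G03310 had -1.63 (standard error 0.28) and 2.58, or 3.1-fold and 5.97-fold. AT4G33666 followed with -1.65 and 1.61, and AT2G29290 with -1.30 and 1.45. AT2G41250 stood out by its level, with a mean intensity of 1757: its lowest, median and highest intensities were 237.4, 892.3 and 1329 with sucrose and 1341, 2217 and 4568 without it. No array with sucrose reached the lowest array without it.

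The remaining 7 genes with the largest smaller effect were AT5G39080, AT5G47610, AT1G18810, AT3G28220, AT3G09580, AT1G75460 and AT4G28290. Their log2 sucrose effects lay between -1.22 (AT1G18810) and -0.88 (AT4G28290) and their light effects between 0.92 (AT3G09580) and 2.47 (AT3G28220). AT3G28220 is the least certain of them, with a standard error of 0.48 and arrays at 4.70 to 10.5 in WT under sucrose in darkness, below the intensity of 40 used as a filter. The largest light effects of all were those of AT1G64500 (log2 3.32, standard error 0.37) and CYP71B36 (3.23, standard error 0.20). Next in brightness to HPR and GME were AT5G24210 (3420), AT5G48490 (2312), AT5G24165 (2160) and AT1G54500 (1928), with log2 light effects of 0.53 to 1.17.

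The limits of the rule pass through a continuum. Just inside the sucrose limit were AT4G19510 (-0.402), AT5G11020 (-0.403) and ZW9 (-0.407), and just outside AT4G00755 (-0.394), AT3G45680 (-0.394) and AT5G50915 (-0.389). For light, AT1G35420 (0.411), AT5G52030 (0.416) and AT1G67620 (0.42) were inside and AT3G23700 (0.397), AT2G03980 (0.38) and AT4G00750 (0.377) outside. For mean intensity, AT1G13670 (109.1), AT3G28220 (110.9) and AT3G44020 (111.8) were inside and AT4G38700 (99.5), AT3G46490 (93.7) and AT2G29300 (92.2) outside. A further 154 genes met both effects at a mean intensity under 100.

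Across treatments the order of the conditions was shared by nearly all genes. The highest of 4 condition means was in light without sucrose for 88 of 88 genes in *sdg8-5* and 85 in WT, and the lowest was in sucrose and darkness for 84 in *sdg8-5* and 79 in WT. Sucrose had a negative effect in both lights and both genotypes for 75 genes, and light a positive one with and without sucrose in both genotypes for 85. With both signals given together, 59 genes in *sdg8-5* and 69 in WT stood above their starved dark mean, with median log2 differences of 0.27 and 0.42. These counts use the contrasts of the rule and describe it.

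**Figure D2:**
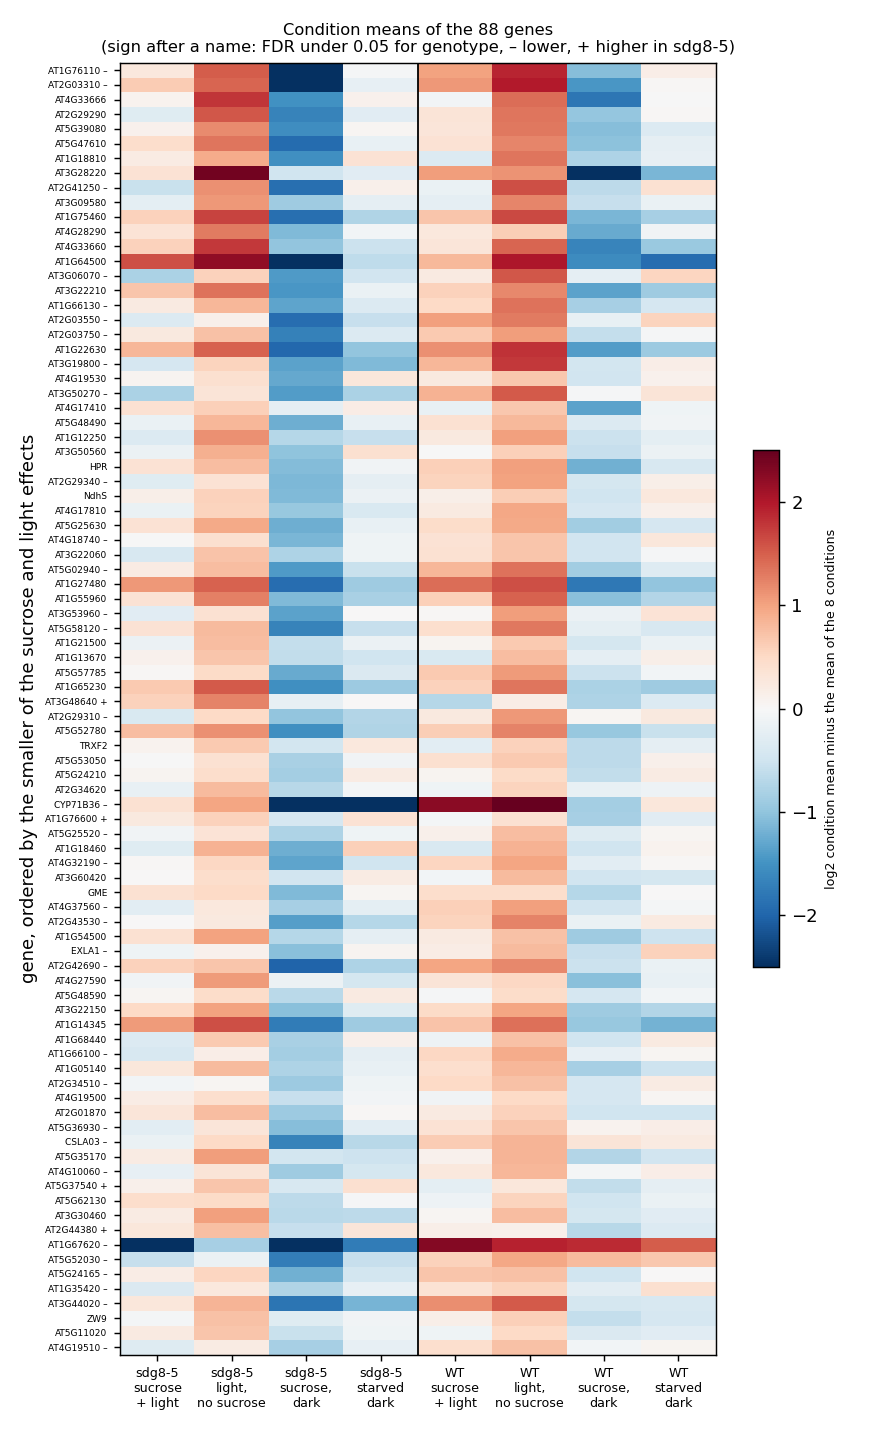
Heat map of the 88 genes (rows, ordered by the smaller of the sucrose and light effects) in 8 conditions (columns, *sdg8-5* left, WT right); color is the log2 condition mean of 3 arrays minus the gene's mean over the 8 conditions, limited to 2.5 in either direction. The column of light without sucrose is the reddest in both genotypes, and AT1G67620 and CYP71B36 differ most between the genotypes.

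Averaged over the 88 genes and centred per gene, log2 intensity in *sdg8-5* was 0.09, 0.12 and 0.02 in sucrose and light, 0.77, 0.87 and 0.74 in light without sucrose, -1.05, -1.39 and -1.15 in sucrose and darkness, and -0.20, -0.32 and -0.40 in the starved dark. In WT it was 0.35, 0.41 and 0.40 in sucrose and light, 1.01, 1.00 and 1.03 in light without sucrose, -0.62, -0.70 and -0.58 in sucrose and darkness, and -0.11, -0.07 and -0.25 in the starved dark. The *sdg8-5* arrays lay below all WT arrays in 3 treatments and overlapped them in the starved dark. The gap was widest under sucrose in darkness.

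**Figure D3:**
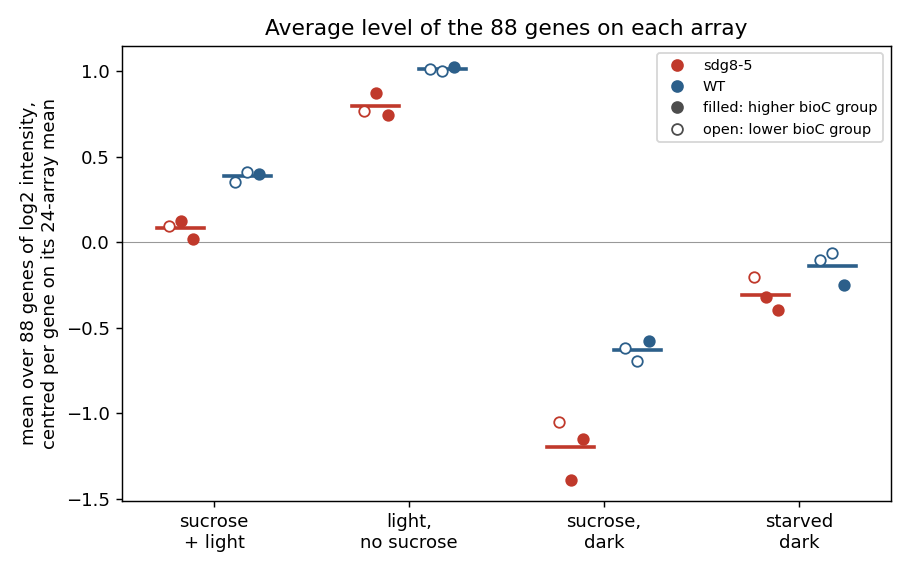
Mean over the 88 genes of log2 intensity, centred per gene on its 24-array mean (y axis), for each array in the 4 treatments (x axis), *sdg8-5* left of WT, with bars at the mean of 3 arrays. Filled points are arrays of the higher and open points of the lower bioC group. Under sucrose in darkness the *sdg8-5* arrays lie at -1.05 or below and the WT arrays at -0.70 or above.

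Whether these genes differed between *sdg8-5* and WT was tested with the genotype contrast, which does not use the sucrose and light effects of the rule. The rule's mean intensity limit does use the arrays of both genotypes: 83 of the 88 genes reach 100 in each genotype by itself, AT1G67620, CYP71B36, AT5G52030 and AT3G44020 only in WT, and AT3G28220 only in *sdg8-5*. Over the 4 treatments, 33 of the 88 genes (37.5%) were lower in *sdg8-5* and 4 (4.55%) were higher at a limma FDR under 0.05. At an unadjusted p under 0.05 they were 40 and 7 (15.0% and 14.8% of named genes). Over all 12432 named genes 10.1% were lower and 8.49% higher, and over the 7846 of mean intensity of at least 100, 13.8% and 12.1%. The median log2 difference was -0.18 for the 88 genes, 0.01 for all named genes and 0.02 for those of at least 100, and 63 of the 88 differences were negative. Among the 83 genes that reach the limit in each genotype, 29 were lower and 4 higher, against 13.1% and 11.9% of the 7575 named genes that do so, and the median difference was -0.18. The 33 lower genes differed by -3.80 to -0.30 (median -0.64), and 32 of them had a negative difference in all 4 treatments, AT1G66130 being the exception. Genes that moved in other pairs of directions had smaller shares lower in *sdg8-5*: 15.3% of 458 genes raised by both signals, 14.0% of 328 lowered by both and 13.8% of 65 raised by sucrose and lowered by light. The share was larger where only 1 of the 2 limits was applied, the group included. It was 20.3% of 632 genes lowered by sucrose with any light effect. It was 21.3% of 1448 genes raised by light with any sucrose effect. The difference between these shares was not tested.

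The call counts depend on the arrays used. Within the lower bioC group 8 genes were lower and 0 higher, with 1.93% and 0.346% of all named genes, and the median difference was -0.14. Within the higher bioC group 10 were lower and 0 higher, with 1.49% and 1.17% of all named genes, and the median was -0.27. In these fits conditions with 1 array are assumed to vary like the others, and 3 and 5 of the 88 genes were higher at an unadjusted p under 0.05. With the 25S signal as a covariate 17 were lower and 2 higher (3.77% and 2.24% of all named genes), with a median of -0.34. Without the 8 arrays of replicate 2 the counts were 21 and 1 (4.21% and 2.49% of all named genes), and without those of replicate 3 they were 20 and 1 (6.12% and 4.17%).

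AT1G67620 was the gene most reduced in *sdg8-5*. Its intensity in *sdg8-5* was 14.3, 11.8 and 6.79 in sucrose and light, 46.8, 21.2 and 41.2 in light without sucrose, 11.4, 13.2 and 8.77 in sucrose and darkness, and 15.7, 21.97 and 17.7 in the starved dark. In WT it was 275.8, 306.3 and 314.1 in sucrose and light, 245.8, 209.2 and 244.7 in light without sucrose, 226.6, 239.0 and 204.0 in sucrose and darkness, and 125.3, 210.3 and 203.0 in the starved dark. No *sdg8-5* array came near a WT array, and most *sdg8-5* values lie below 40, near background, which limits the fold. It was 13.9-fold lower over the 4 treatments (log2 difference -3.80, standard error 0.145). The gene has a mean of 19.2 in *sdg8-5* and 233.7 in WT and reached the intensity limit through WT alone, so the difference is a description and no test is given. AT1G67620 is also close to the rule's limits (sucrose -0.44, light 0.42). In WT every array in sucrose and light lay above every array in light without sucrose. The WT arrays in darkness overlapped with and without sucrose. A fall with sucrose was thus seen in *sdg8-5* alone, at values near background.

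CYP71B36, the cytochrome P450, responded to light in both genotypes at very different levels. In *sdg8-5* it had 103.3, 79.9 and 103.0 in sucrose and light, 171.3, 114.6 and 152.0 in light without sucrose, 17.7, 4.96 and 11.9 in sucrose and darkness, and 4.49, 13.7 and 10.8 in the starved dark. In WT it had 386.1, 389.0 and 277.8, then 534.7, 508.3 and 506.1, then 59.9, 39.7 and 27.3, and in the starved dark 82.1, 95.1 and 88.5, for the same order of treatments. The genotypes did not overlap in any treatment. The log2 difference was -2.26 (standard error 0.20), a 4.79-fold reduction. CYP71B36 also reached the intensity limit through WT alone (mean 65.6 in *sdg8-5* and 249.6 in WT), and its difference is likewise a description.

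Members of known or annotated families followed. AT3G50270, annotated by the study as an acyltransferase of the HXXXD type, had 85.8, 132.1 and 322.8 (lowest, median and highest of 12 arrays) in *sdg8-5* and 218.3, 359.9 and 700.1 in WT. Its log2 difference was -1.34 (standard error 0.09, limma FDR = 1.16e-08). AT3G19800, annotated as a protein of unknown function with a DUF177 domain, had 103.7, 256.1 and 548.9 in *sdg8-5* and 240.3, 589.7 and 1452 in WT. Within each treatment neither gene's genotypes overlapped, although the 12 arrays of a genotype span the treatments. AT3G19800 differed by -1.15 (standard error 0.12, limma FDR = 1.56e-06). AT4G37560, of the acetamidase/formamidase family, was lower by less (log2 difference -0.55, standard error 0.12, limma FDR = 0.00257), and EXLA1 by -0.48 (FDR = 0.0293). The study chose CYP71B36, AT3G50270, AT3G19800 and AT4G37560 on these arrays for a genotype by light interaction, so their presence is not independent evidence.

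CSLA03 had its largest genotype difference under sucrose in darkness. Its *sdg8-5* arrays had 261.0, 279.9 and 180.2 in sucrose and light, 341.3, 428.2 and 355.2 in light without sucrose, 92.2, 66.6 and 93.9 in sucrose and darkness, and 122.0, 184.9 and 193.6 in the starved dark. Its WT arrays had 315.1, 574.3 and 389.3, then 441.8, 526.6 and 475.0, then 302.2, 335.5 and 353.2, and in the starved dark 314.9, 314.8 and 297.8. The genotypes did not overlap in any treatment, and the WT arrays in darkness were alike with and without sucrose. Over the 4 treatments CSLA03 differed by -1.02 (standard error 0.11, limma FDR = 3.45e-06), and under sucrose in darkness it was 3.96-fold lower (log2 difference -1.99, FDR = 4.91e-05).

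The other genes with the lowest p-values were AT2G03550 (log2 difference -1.35), AT3G06070 (-1.04) and AT2G29310 (-0.81), with limma FDR of 6.77e-07, 2.18e-06 and 1.83e-06. AT1G76110 (2.01-fold, FDR = 0.00444), AT2G41250 (1.5-fold, FDR = 0.00299) and AT2G03310 (1.77-fold, FDR = 0.0434) were lower too. AT2G03310 lost its call with 21 of the 24 arrays left out singly (limma FDR up to 0.0816). In 12 of the 88 genes every *sdg8-5* array lay below every WT array in all 4 treatments, an order shown by 2.35% of named genes. These are AT1G67620, CYP71B36, CSLA03, AT3G50270, AT3G19800, AT2G03550, AT3G06070, AT2G29310, AT2G42690, AT4G32190, AT5G52030 and AT1G35420, of which 9 reach the intensity limit in each genotype. Of the 7575 named genes that reach it in each genotype, 227 show this order.

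**Figure D4:**
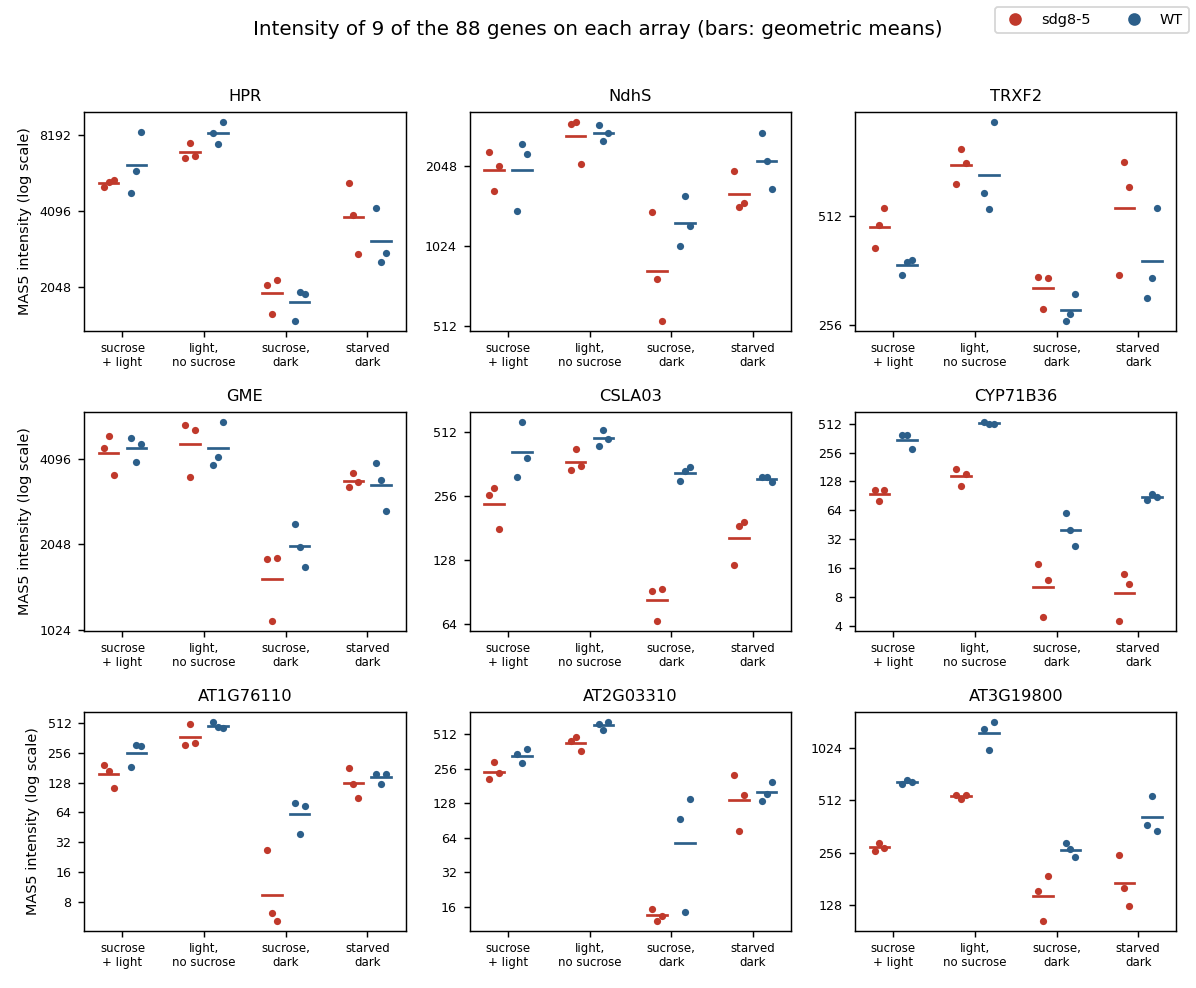
MAS5 intensity (y axis, log scale) of 9 of the 88 genes on each array in the 4 treatments (x axis), *sdg8-5* in red left of WT in blue, with bars at the geometric mean of 3 arrays. CSLA03, CYP71B36 and AT3G19800 show no overlap of the genotypes in any treatment, while HPR, NdhS and GME overlap in all 4.

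The 4 genes higher in *sdg8-5* had log2 differences of 0.38 to 0.81. AT3G48640 had 123.6, 210.4 and 541.1 (lowest, median and highest of 12 arrays) in *sdg8-5* and 78.9, 115.9 and 231.2 in WT. Its log2 difference was 0.81 (standard error 0.15, limma FDR = 0.000656), a 1.76-fold rise. AT5G37540 (0.41, FDR = 0.0419), AT2G44380 (0.38, FDR = 0.0108) and AT1G76600 (0.38, FDR = 0.0447) rose less, and AT5G37540 and AT1G76600 lost their calls with 14 and 17 of the 24 arrays left out singly (limma FDR up to 0.0787 and 0.0825).

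Treatment by treatment, sucrose in darkness had the most genes lower in *sdg8-5* on the log2 scale. There 24 of the 88 genes were lower and 0 higher (limma FDR under 0.05; 4 higher at an unadjusted p under 0.05, as were 7.38% of named genes), against 3.20% and 1.29% of named genes, and the median log2 difference was -0.50. In sucrose and light 7 were lower and 1, AT3G48640, higher (1.5% and 0.676% of named genes, median -0.23). In light without sucrose 6 were lower and 0 higher (1.5% and 0.547%, median -0.13), and in the starved dark 9 were lower and 0 higher (2.97% and 1.21%, median -0.10), with 3 and 9 higher at an unadjusted p under 0.05 (6.24% and 6.83% of named genes). This order turned on linear intensities, where three-way ANOVA gave 7 lower in sucrose and darkness, 12 in sucrose and light, 18 (with 4 higher) in light without sucrose and 6 in the starved dark. Shares of all named genes are not given for these linear counts. Of the 7846 named genes of mean intensity of at least 100, 356 were lower in limma under sucrose in darkness and 174 in sucrose and light. In light without sucrose 176 of them were lower and in the starved dark 331. Their median lay between -0.00 and 0.03 in each treatment. The largest of a gene's 4 differences toward lower values in *sdg8-5* was under sucrose in darkness for 53 genes. The 6 genes lower in all 4 treatments were AT1G67620, CYP71B36, AT3G50270, AT3G19800, AT2G03550 and AT3G06070. Of these, AT1G67620 and CYP71B36 reached the intensity limit through WT alone, and their place here is a description. A further 16 passed in sucrose and darkness but in no other treatment. No share of all named genes is given for the counts of 53, 6 and 16, which are a description of the 88 genes. The counts of each treatment include the 4 genes that reach the limit only in WT and were not repeated without them.

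The count under sucrose in darkness was 14 without replicate 2 of *sdg8-5* in that treatment, and 5 each without all arrays of replicate 2 or of replicate 3. That replicate 2 array had the lowest average of all 24, at -1.39, and the median difference without it was -0.39. Every *sdg8-5* array lay below every WT array in 36 genes under sucrose in darkness, 31 in sucrose and light, 30 in light without sucrose and 13 in the starved dark, against 12.1%, 10.2%, 9.77% and 10.4% of named genes. The 25S control had 6039 to 9281 in *sdg8-5* and 1278 to 2798 in WT under sucrose in darkness, and 1038 to 8023 in *sdg8-5* and 409.6 to 508.5 in WT in light without sucrose. With its signal as a covariate, 16 of the genes were lower and 1 higher under sucrose in darkness (median -0.67). Within the lower bioC group the median difference was -0.34 and within the higher -0.59, in fits where 1 genotype has 1 array in that treatment. The starved dark count was 5 without WT replicate 2 of that treatment. The light without sucrose count was 2 without WT replicate 1 and 3 without replicate 3 of either genotype there. In sucrose and light, 8 genes passed in either direction, and 4 or 5 without replicate 2 or 3 of either genotype.

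**Figure D5:**
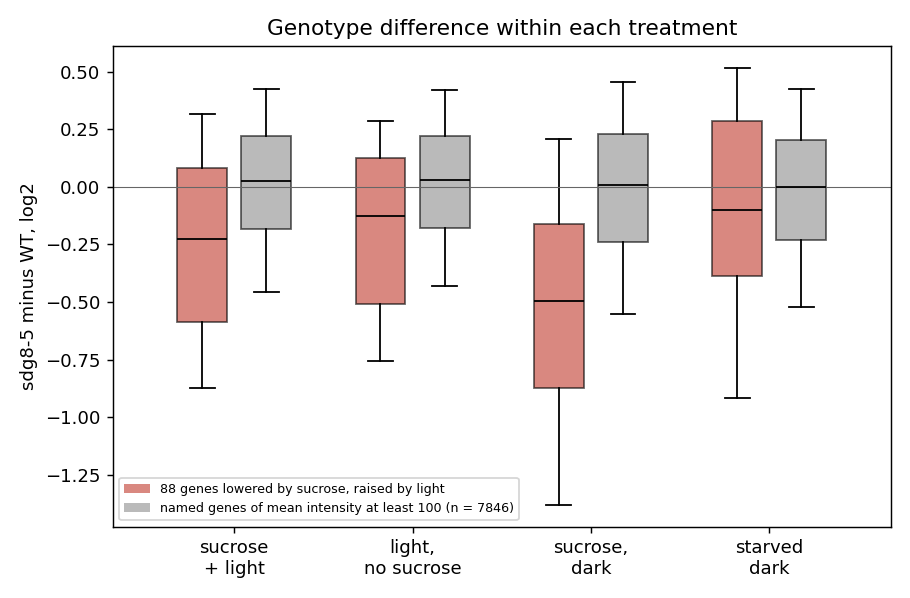
Log2 difference of *sdg8-5* minus WT (y axis) in each treatment (x axis) for the 88 genes (red, left) and the named genes of mean intensity of at least 100, the 88 included (grey, right). Boxes span the quartiles with the median as a line and whiskers reach the 10th and 90th percentiles over genes. The red median is lowest under sucrose in darkness, at -0.50.

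AT1G76110, the gene with the largest sucrose effect, differed most between genotypes under sucrose in darkness. Under sucrose in darkness it had 26.6, 6.24 and 5.19 in *sdg8-5* and 80.5, 38.9 and 75.1 in WT. In the starved dark it had 177.8, 123.2 and 90.1 in *sdg8-5* and 157.4, 123.2 and 156.1 in WT. In darkness the genotypes did not overlap with sucrose and did overlap without it. The log2 difference was -2.70 under sucrose in darkness (standard error 0.46, limma FDR = 0.00183) and -0.21 in the starved dark (FDR = 0.886), with *sdg8-5* below the filter intensity of 40 in the first.

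AT2G42690 lies well above background. Under sucrose in darkness it had 475.3, 224.5 and 479.0 in *sdg8-5* and 1012, 1076 and 1007 in WT. In sucrose and light it had 2349, 2287 and 2077 in *sdg8-5* and 2645, 3267 and 2969 in WT. The genotypes were apart in both treatments. The log2 differences were -1.47 (limma FDR = 0.000395) and -0.40 (FDR = 0.4).

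Whether these differences between treatments exceed the spread was tested with the interactions. For genotype by sucrose, 0 of the 88 genes passed an FDR of 0.15 in limma, as did 0.00% of named genes, and 11 had an unadjusted p under 0.05, all with a more negative sucrose effect in *sdg8-5* (2.85% of named genes, with 1.89% the other way). The median log2 interaction was -0.22 for the 88 genes and 0.01 for named genes of at least 100, with 75 of 88 negative. On linear intensities, three-way ANOVA had 5 genes with a more negative and 4 with a more positive sucrose effect in *sdg8-5* at an unadjusted p under 0.05, with 54 of 88 negative. Over the 12432 named genes these were 349 and 273, with 6549 negative. AT1G67620 had the most negative log2 interaction (-1.58). AT1G67620 reached the intensity limit through WT alone and lies near background in *sdg8-5*, so no test is given for it. Its place among the 11 is a description. The count of 11 was not repeated without the genes that reach the limit in only 1 genotype. Of the other genes, CSLA03 had the lowest FDR (-0.76, FDR = 0.874). The genes were chosen on the sucrose effect averaged over both genotypes, and the same rule applied to one genotype took 145 genes in *sdg8-5* alone and 83 in WT alone, of which 78 and 59 are among the 88. The balance of signs is therefore given as a description.

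For genotype by light, 0 of the 88 genes passed an FDR of 0.15 in limma, against 0.0161% of named genes that were higher and 0.00% that were lower. At an unadjusted p under 0.05, 6 were higher and 1 lower (4.08% and 2.22% of named genes). The result depends on the fit: the study's ANOVA called CYP71B36, AT3G50270, AT3G19800 and AT4G37560 for this interaction. Three-way ANOVA on linear intensities also gave calls among the 88 genes for genotype by light and for sucrose by light, counted in the closing section. In limma CSLA03 was nearest, with a light effect larger in *sdg8-5* by 0.87 on the log2 scale (FDR = 0.348), and AT2G42690 followed (0.59, FDR = 0.642). For sucrose by light, 0 passed an FDR of 0.05 in limma, against 0.169% of named genes lower and 0.0724% higher. At an unadjusted p under 0.05, 10 were lower and 10 higher (6.15% and 3.89% of named genes). The median was -0.00, and 65 of the 88 lay within 0.5 of 0 on the log2 scale. GME had the lowest FDR, with a light effect larger with sucrose by 0.89 (FDR = 0.106), and AT1G12250 had a log2 interaction of -0.91 (FDR = 0.114). The interaction of all 3 factors passed an FDR of 0.05 in 0 of the 88 genes and in 0.00% of named genes, with 12 higher and 1 lower at an unadjusted p under 0.05 (2.23% and 2.12% of named genes) and a median of 0.33.

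The genes lie on all 5 chromosomes (24, 13, 16, 14 and 21 genes). With at most 4 coding genes between them, 7 pairs were neighbours, and the pairs AT4G19500 and AT4G19510 and AT4G33660 and AT4G33666 had none between. AT4G33660 and AT4G33666 had log2 light effects of 2.05 and 1.61 and neither passed the genotype test (0.41 and 0.25). In the first pair AT4G19510 was lower in *sdg8-5* (-0.58, limma FDR = 0.00158) and AT4G19500 had -0.02. The run AT2G29290, AT2G29310 and AT2G29340 had log2 sucrose effects of -1.30, -0.54 and -0.66 and genotype differences of -0.36, -0.81 and -0.64, of which AT2G29310 and AT2G29340 passed. In AT1G66100 and AT1G66130 both genes were lower (-0.64 and -0.30). Neighbours can share sequence, and cross-hybridization between their probe sets was not tested.

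Other measured genes of the pathways that light and sugar control were mostly outside the group. PRK of the Calvin cycle (sucrose -0.46, light 1.72) and the carotenoid gene LYC (-0.46 and 0.87) met both effects and are outside only because the rule leaves them out. Many listed genes were not measured: the lists hold 14 genes of photorespiration, 23 of the Calvin cycle, 53 of photosystems and light harvesting and 23 of chlorophyll synthesis. Of 4 measured genes of photorespiration, HPR alone belongs to it; AT1G11860 rose with light (log2 1.53) and had a sucrose effect of -0.02, and AT1G80380 fell with both sucrose (-0.96) and light (-0.75). In the photorespiration list 2 genes were lower with sucrose, 3 were higher and 1 lower with light and 1 was lower in *sdg8-5* (limma FDR under 0.05; 8.19% of named genes were lower with sucrose, and 17.3% higher and 16.4% lower with light). Of 4 Calvin cycle genes 2 were lower with sucrose, 3 higher with light and 2 lower in *sdg8-5*, AT1G56190 (-0.32) and SBPASE (-0.54). Of 8 nuclear photosystem and light harvesting genes, 5 were lower with sucrose and 4 higher with light, with medians of -0.24 and 0.23, and 4 were lower in *sdg8-5*. Of 7 chlorophyll synthesis genes 1 was lower with sucrose, 2 were higher and 1 lower with light, and 3 were lower and 1 higher in *sdg8-5*. All 6 measured genes of dark and carbon starvation were lower with both signals and 2 were higher in *sdg8-5*. Over all named genes, 10.1% were lower and 8.49% higher in *sdg8-5*.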

How the data were processed

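Expression was measured on Affymetrix ATH1 arrays, 24 in all. The authors computed MAS5 intensities in R and deposited them, not log-transformed, for 22810 probe sets. The genome annotation used by the authors for the arrays is not given in the sources used here. A probe set was kept (21552) where any array reached an intensity of 40. The log2 of each deposited intensity was fitted with limma 3.58.1 in R 4.3.3 with 8 condition means (16 residual degrees of freedom), and effects were contrasts of these means with Benjamini-Hochberg FDR over all kept probe sets. Thresholds were 0.05, and 0.15 for genotype by light, as in the study, and for genotype by sucrose. Of the probe sets, 13513 are listed with 1 gene, 503 with several and 8794 with none. The brightest probe set of a gene was taken, and 87 of the 88 genes matched the RefSeq table of TAIR10.1, used for names and neighbours. Promoter and protein sequences were not used here. Each gene is measured by 1 intensity on each array, and the number of arrays limits the precision.

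Genes were named by rule: the 12 with the largest smaller effect, up to 8 per direction with the lowest p for genotype, the leading genes of each interaction, members of pathway lists, the 6 brightest, those nearest each limit and those with an annotated role. AT1G64500, AT4G37560, EXLA1, AT1G66100, AT1G66130, AT4G19500, AT4G33660, AT2G29340, AT4G32190, AT1G11860, AT1G80380, AT1G56190 and SBPASE were named after their values were seen. The genes and the lists were chosen with earlier results of these data known. Alternatives were other filters, log2 of intensity plus 16, quantile normalization, median centring, trend and robust estimation, three-way ANOVA on log2 and linear values, replicate and bioC blocks, a 25S covariate, and leaving out replicates and arrays. The fits within bioC groups, the rule within a genotype or bioC group and the intensity limit in each genotype were chosen after seeing the data. The fit was tested on simulated data. Figures were drawn with matplotlib 3.10.9 in Python 3.11.15.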

Additional observations from a re-analysis of the deposited data

How the results depend on the processing

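The 33 genes lower in *sdg8-5* were 17 with the 25S covariate, 8 within the lower and 10 within the higher bioC group, 20 to 34 without 1 replicate number and 30 to 37 without 1 array. The 4 higher were 2, 0, 0, 1 to 3 and 2 to 4 under the same settings, the single arrays that gave 2 being replicates 2 and 3 in sucrose and light and replicates 1 and 3 in light without sucrose, of either genotype. The median difference stayed negative, at -0.17 with quantile normalization and -0.16 with centring. On linear intensities, three-way ANOVA gave 4 calls for genotype by light, 16 for sucrose by light, 22 for genotype in light without sucrose and 7 in sucrose and darkness, and genotype by light of AT2G42690 was -318.9 intensity units, opposite to its log2 value, with FDR = 0.681. Genotype by sucrose gave 1 call with the stricter filter of at least 100 on 3 arrays and 1 with the 25S covariate, and sucrose by light gave 2 with trend and robust estimation. Leaving out arrays or replicates gave 0 to 1 calls for genotype by light (1 without WT replicate 2 in sucrose and light), 0 to 2 for genotype by sucrose (2 without *sdg8-5* replicate 1 in sucrose and darkness, 1 without its replicate 2 in light without sucrose) and 0 to 1 for sucrose by light (1 without *sdg8-5* replicate 1 in sucrose and darkness). Within treatments such counts ran between 1 and 10 in sucrose and light, 1 and 7 in light without sucrose, 5 and 26 in sucrose and darkness, and 2 and 11 in the starved dark. The rule took 145 genes in *sdg8-5* alone, 118 with centring (81 shared) and 110 with quantile normalization (84 shared). Arrays with the same replicate number deviated together little (correlations -0.11 to 0.13, median 0.025, against -0.14 to 0.11, median -0.014, for other pairs). Whether the numbers pair the samples cannot be told from these correlations. All arrays of replicate 1 lie in the lower bioC group and all of replicate 3 in the higher. In replicate 2 the WT arrays lie in the lower and the *sdg8-5* arrays in the higher group, so genotype and bioC group cannot be told apart there. With a replicate block 36 genes were lower and 3 higher. Of 21 named genotype calls, 15 were lost within the lower and 12 within the higher bioC group, 8 with the 25S covariate, 3, 6 and 8 without replicates 1, 2 and 3, 1 to 3 without 1 array, and 1 each with the bioC block, the replicate block, quantile normalization and three-way ANOVA on log2 values. The 21 calls include AT1G67620, CYP71B36, AT5G52030 and AT3G44020, which reach the intensity limit only in WT. The losses were not recounted without these genes. The causes of the changes between settings were not tested. Values under 40 are near background, which limits the folds of low genes.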
